A study of Mus musculus and Acomys cahirinus with 16 samples.

Results

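The interferon-inducible GTPases followed here are 10 genes chosen by symbol: Irgm1, Irgm2, Igtp, Iigp1, Gbp2, Gbp3, Gbp5, Gbp7, Gvin1 and Gvin3. All 10 were found among the 56980 genes of the mouse table, and 6 (Irgm1, Irgm2, Igtp, Iigp1, Gbp2 and Gvin3) among the 19818 genes of the spiny mouse table. The list was selected from earlier results on these same samples, in which Gvin3 and Irgm1 were among the largest differences between the species, so the responses of the 10 genes are given below as a description, without p-values. Messenger RNA of skin was sequenced in 2 species, the mouse (Mus musculus) and the spiny mouse Acomys cahirinus, an African rodent studied for its scarless skin repair. In each of them 4 samples were untreated and 4 had received DMBA/TPA, which pairs a DNA-damaging carcinogen (DMBA) with a phorbol ester tumour promoter (TPA). The labels name tissue and treatment only, so strain, sex, age, dose, duration and the presence of tumour tissue in the treated samples are not given in the sources used here. They also do not say that the 4 samples of a group came from separate animals, and the p-values below measure the spread between these samples.

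Interferon-inducible GTPases are among the transcripts that rise most strongly in mouse cells exposed to interferon gamma, and they belong to 3 families. The immunity-related GTPases (IRG) act on the vacuoles that enclose intracellular pathogens: the IRGM regulators (Irgm1, Irgm2 and Igtp) stay on the cell's own membranes and hold the effectors inactive there, while effectors such as Iigp1 load onto the pathogen's vacuole and break it. The guanylate-binding proteins (GBP) follow to the same vacuoles, several of them anchored by a prenyl lipid, and expose bacterial products to cytosolic inflammasomes. The Gvin genes encode very large inducible GTPases whose function is less well understood. Interferon gamma signals through its receptor and the kinases Jak1 and Jak2 to GAS elements in promoters, and IRF factors such as IRF1 bind interferon-stimulated response elements (ISRE).

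In mouse the 3 regulators of the list and the GBP and Gvin genes lie in clusters. The deposited coordinates (GRCm39) put Irgm1 at chr11:48752795-48762510, Igtp at chr11:58090382-58098417 and Irgm2 at chr11:58090444-58113608. Gbp5, Gbp7, Gbp3 and Gbp2 follow each other on the plus strand of chromosome 3 from 142199739 to 142343769, and Gvin1 (105755763 to 105814533) and Gvin3 (106195950 to 106203242) lie on the minus strand of chromosome 7. In the spiny mouse assembly (AcoCah2) Irgm1, Igtp and Irgm2 lie on scaffold_14, at 79370331, 88048673 and 88061984, Iigp1 lies on scaffold_3 at 27487880 and Gvin3 on scaffold_12 at 11912887.

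The promoters of the mouse genes are shown because they hold the motifs of the interferon pathway. RefSeq promoter windows, from 250 bases before to 50 bases after the annotated start (table of build GRCm38.p6), were matched to 7 of the 10 genes. Each was found letter for letter in GRCm39, whose coordinates are given. Iigp1, Gvin1 and Gvin3 had no entry. The stretches below run 5′ to 3′ on the gene's strand, with capitals marking a GAS match (TTCNNNGAA) or an ISRE core match (GAAANNGAA), both searched on both strands. Tgtp1, another IRG gene of chromosome 11, is added for comparison. Gm12250 and Ifi47, IRG genes of the same chromosome, were searched too and are not printed. The window of Gm12250 held 1 GAS match and 2 ISRE cores, and that of Ifi47 held 0 of either.
Irgm1, chr11:48762248-48762292, minus strand: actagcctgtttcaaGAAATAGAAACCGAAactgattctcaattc
Irgm2, chr11:58105713-58105762, plus strand: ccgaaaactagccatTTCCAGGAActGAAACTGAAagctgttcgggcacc
Igtp, chr11:58090322-58090371, plus strand: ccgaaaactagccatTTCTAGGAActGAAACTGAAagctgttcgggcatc
Gbp2, chr3:142326351-142326389, plus strand: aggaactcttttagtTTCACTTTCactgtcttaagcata
Gbp3, chr3:142265746-142265790, plus strand: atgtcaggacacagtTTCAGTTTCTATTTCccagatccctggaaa
Gbp5, chr3:142202516-142202666, plus strand: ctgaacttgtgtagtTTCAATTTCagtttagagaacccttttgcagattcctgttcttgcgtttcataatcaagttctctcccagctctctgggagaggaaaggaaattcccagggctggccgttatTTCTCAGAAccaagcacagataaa
Gbp7, chr3:142235976-142236068, plus strand: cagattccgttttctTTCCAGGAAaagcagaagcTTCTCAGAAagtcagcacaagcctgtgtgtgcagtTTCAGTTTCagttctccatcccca
Tgtp1, chr11:48883127-48883176, minus strand: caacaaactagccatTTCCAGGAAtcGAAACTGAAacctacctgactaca
An ISRE core was present in 7 of 7 genes with a window, against 9.76% of the 27025 genes in the RefSeq set, and a GAS match in 4 of 7 (Irgm2, Igtp, Gbp5 and Gbp7), against 9.55% of genes. In Gbp3, which has a second window with no match, and in Irgm1 a pair of overlapping ISRE cores was found and no GAS match. The stretches of Igtp and Irgm2 differed at 2 of 50 bases and carry the GAS match a few bases before the ISRE core, an arrangement also seen in Tgtp1, whose stretch differed from that of Irgm2 at 14 of 50 bases. In the deposited annotation the Irgm2 gene begins just after the start of Igtp. The RefSeq starts of Irgm1, Irgm2 and Gbp5 lie inside the deposited gene spans. A match of letters is a description of these windows and shows no binding.

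Mouse samples held 19608787 to 30198281 counts each and spiny mouse samples 21143918 to 30561256. A floor of 3 counts, which covers counting error only, corresponded to 0.0982 to 0.153 CPM (counts relative to the scaled library total). Levels are CPM scaled by TMM factors, as mean ± SD over the 4 samples. Called means that edgeR's quasi-likelihood test gave an adjusted p below 0.05. Several of these genes have similar copies, and fragments that could not be placed at a single site were not counted. Stretches of 75 bases in the mouse transcripts were compared. For Gvin1 98.3% and for Gvin3 36.6% of them also occur in transcripts of other genes. Gvin1 shared the most with Gvin2, and Gvin3 with Gm57206, followed by Gvin-ps3, Gvin-ps5 and Gvin1. Both are therefore uncertain, and Gvin1 most of all. The shares were 13.7% for Gbp7, 9.75% for Irgm2, 7.56% for Gbp5 and below 5% for the other 5. Igtp and Irgm2 share 162 exon bases, and 11.3% of the exon bases of Gbp7 are shared with Gm43802. No spiny mouse genome was used here, so similar copies could not be looked for in that species beyond the exon overlaps in its table.

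In mouse skin the GTPases were lower after DMBA/TPA, and in spiny mouse skin those that could be measured were higher. Of the 10 genes, 9 were called lower in mouse and 0 higher, with a median log2 fold change of -1.04. Over all 19740 mouse genes tested, 35.3% were called lower, 25.9% were called higher and the median log2 fold change was -0.15. Of the 6 symbols with spiny mouse counts, 5 passed the filter on low values, and all 5 were called higher, with a median of 2.80. Over all 14833 spiny mouse genes 28.2% were called higher, with a median of -0.01. Because the list was chosen from these contrasts, nothing is read from these counts.

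**Figure D1:**
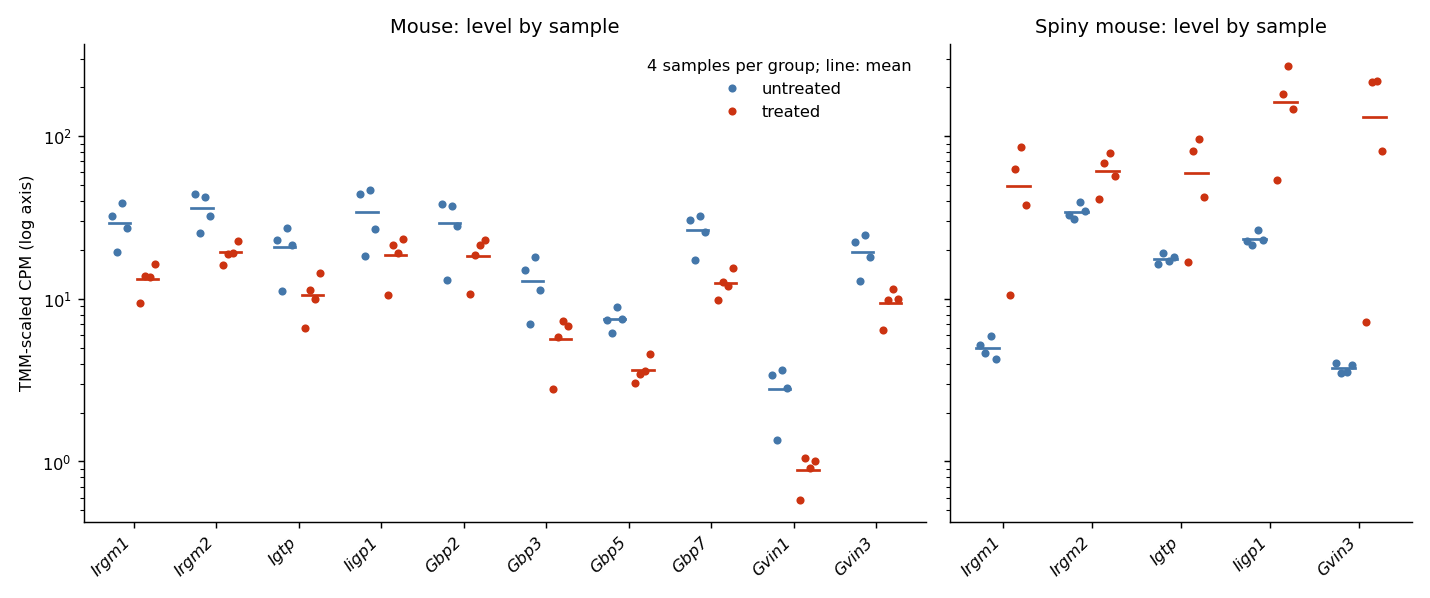
TMM-scaled CPM (log axis) of each interferon-inducible GTPase in every sample, with untreated samples in blue, treated samples in red and the group mean as a line. In mouse the treated samples sit below most untreated samples, and in spiny mouse the untreated samples lie close together while the treated samples of Gvin3 range from 7.19 to 219 CPM.

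Irgm1, an IRGM regulator needed by mice for control of mycobacteria, was measured at 32.5, 19.3, 38.9 and 27.1 CPM in untreated mouse skin (replicates 1 to 4) and at 9.45, 13.8, 13.7 and 16.3 CPM in treated mouse skin. The groups did not overlap, and the mean fell from 29.5 ± 8.29 to 13.3 ± 2.83 CPM (log2 fold change -1.14, SE 0.230, n = 4 per group). In spiny mouse Irgm1 stood at 5.21, 4.64, 5.89 and 4.25 CPM in untreated skin and at 10.6, 62.8, 86.1 and 37.8 CPM in treated skin. Every treated spiny mouse sample lay above every untreated one, with replicate 1 well below the other 3. The mean rose 9.87-fold, from 4.996 ± 0.712 to 49.3 ± 32.5 CPM (log2 fold change 3.30, SE 0.539).

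Irgm2, the second regulator, moved least in spiny mouse. It was measured there at 32.6, 31.0, 39.4 and 34.6 CPM in untreated skin and at 40.9, 68.0, 79.0 and 57.2 CPM in treated skin. The groups did not overlap, and the log2 fold change was 0.83 (SE 0.181). In mouse Irgm2 ranged from 25.3 to 44.3 CPM untreated and from 16.2 to 22.8 CPM treated, again without overlap, with a log2 fold change of -0.90 (SE 0.186).

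Igtp, the regulator whose gene overlaps the start of Irgm2, was the only spiny mouse member whose groups overlapped. Untreated spiny mouse samples had 16.5, 19.2, 17.2 and 18.0 CPM, and treated samples 16.8, 81.2, 96.5 and 42.3 CPM. Treated replicate 1 thus lay within the untreated range while the other 3 lay above it, and the log2 fold change was 1.74 (SE 0.441). In mouse Igtp went from 20.7 ± 6.80 to 10.6 ± 3.25 CPM (log2 fold change -0.96, SE 0.296), with untreated replicate 2 (11.1 CPM) inside the treated range of 6.62 to 14.4 CPM. Its call in mouse was lost without treated replicate 1 (-0.77), treated replicate 3 (-0.91) or untreated replicate 3 (-0.74).

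Iigp1 (GRCm39 chromosome 18, 60509099 to 60525706), an effector that loads onto the Toxoplasma vacuole, had the highest treated mean of the list in spiny mouse, per kilobase as well. Its untreated samples there had 22.7, 21.4, 26.4 and 22.9 CPM and its treated samples 53.6, 181, 271 and 146 CPM. The groups did not overlap, and the mean rose 6.98-fold (log2 fold change 2.80, SE 0.405). In mouse the 8 samples were more mixed, at 44.3, 18.3, 46.7 and 26.8 CPM untreated and 10.6, 21.3, 19.2 and 23.3 CPM treated. Untreated replicate 2 lay inside the treated range, and the log2 fold change was -0.87 (SE 0.326). This call was kept only without untreated replicate 2 (-0.98) or untreated replicate 4 (-0.96). It was lost without treated replicate 1 (-0.66), 2 (-0.84), 3 (-0.86) or 4 (-0.98) and without untreated replicate 1 (-0.71) or 3 (-0.61).

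The 4 GBP genes could be followed in mouse only. Gbp2, a GBP recruited to the Toxoplasma vacuole, was measured at 38.4, 13.1, 37.3 and 28.2 CPM in untreated and at 10.7, 18.6, 21.4 and 23.1 CPM in treated mouse skin. Untreated replicate 2 was below 3 of the treated samples, and Gbp2 was the 1 member not called (log2 fold change -0.66, SE 0.339), although without that replicate it was called at -0.81. Gbp5, which promotes inflammasome assembly, had 7.45, 6.18, 8.87 and 7.56 CPM untreated and 3.05, 3.47, 3.60 and 4.57 CPM treated. Its groups did not overlap (log2 fold change -1.03, SE 0.181). Gbp7 went from 26.5 ± 6.68 to 12.5 ± 2.29 CPM without overlap (log2 fold change -1.08, SE 0.208). Gbp3 went from 12.9 ± 4.802 to 5.66 ± 2.02 CPM (log2 fold change -1.18, SE 0.346), with untreated replicate 2 (7.02 CPM) below treated replicate 3 (7.27 CPM).

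In spiny mouse the GBP genes gave almost no counts that can be read. Gbp2 is listed at 0 in all 8 samples, and 100% of its 2442 exon bases are shared with the gene Gbp2b, whose fragments would then be assigned to neither. Gbp2b, with 96.5% of its exon bases shared, had 6, 6, 3 and 4 counts in untreated and 6, 21, 36 and 12 counts in treated samples and did not pass the filter. Rows named Gbp3, Gbp5 or Gbp7 were not found in the spiny mouse counts used. The response of the GBP family in spiny mouse was therefore not analysed here.

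The Gvin genes held both the largest fall and the largest rise of the list. Gvin1 in mouse went from 3.42, 1.36, 3.63 and 2.82 CPM untreated to 0.578, 1.05, 0.909 and 1.002 CPM treated, without overlap (log2 fold change -1.65, SE 0.347). Gvin1 has no row of that name in the spiny mouse counts used. Gvin3 in mouse ranged from 12.8 to 24.6 CPM untreated and from 6.46 to 11.5 CPM treated, also without overlap (log2 fold change -1.05, SE 0.232). In spiny mouse Gvin3 was even across untreated skin, at 4.01, 3.49, 3.57 and 3.93 CPM, and uneven across treated skin, at 7.19, 214, 219 and 81.1 CPM. As raw counts, the treated samples had 158, 5996, 5981 and 1775 fragments and the untreated ones 86 to 118. The groups did not overlap, and the log2 fold change was 5.12 (SE 0.884).

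Groups did not overlap, with treated samples lower, for 6 of 10 members in mouse (Irgm1, Irgm2, Gbp5, Gbp7, Gvin1 and Gvin3), and 32.0% of all mouse genes tested had such groups. With treated samples higher, groups did not overlap for 4 of 5 members in spiny mouse, all but Igtp, against 26.7% of all genes tested. In bulk tissue, fewer cells of a type and less RNA per cell cannot be told apart.

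Between members, levels were compared per kilobase of the gene length in each table. In untreated mouse skin Gbp2 (11.6 ± 4.65 CPM per kb), Igtp (10.2 ± 3.36) and Irgm2 (9.77 ± 2.40) stood highest, and Gbp5 (1.13 ± 0.165) and Gvin1 (0.312 ± 0.114) lowest. Only Gvin3, Gbp5 and Gvin1, at the bottom of that order, were each apart from the next member in every sample, and all higher neighbours overlapped. In untreated spiny mouse skin the order was Irgm2 (14.1 ± 1.51), Igtp (9.15 ± 0.607), Iigp1 (7.53 ± 0.694), Irgm1 (2.002 ± 0.285) and Gvin3 (0.499 ± 0.0344), and only Igtp and Iigp1 overlapped. After treatment Iigp1 came first in spiny mouse (52.5 ± 29.0 CPM per kb) and Gvin3 last (17.3 ± 13.8), and every neighbouring pair overlapped. The order of the mouse members was the same in treated as in untreated skin, from Gbp2 (7.33 ± 2.19) to Gvin1 (0.0984 ± 0.0238).

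The species by treatment difference, which is the spiny mouse log2 fold change minus that of mouse, could be fitted for 5 members. It was 6.16 (SE 0.918) for Gvin3, 4.44 (SE 0.614) for Irgm1, 3.67 (SE 0.556) for Iigp1, 2.70 (SE 0.572) for Igtp and 1.73 (SE 0.275) for Irgm2. All 5 were called with a positive difference, against 21.4% of the 13656 shared genes, whose median was -0.03. As these differences were among those that led to the list, they are a description. Gene models differ between the tables, and their effect cancels only where it acts alike on treated and untreated samples.

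**Figure D2:**
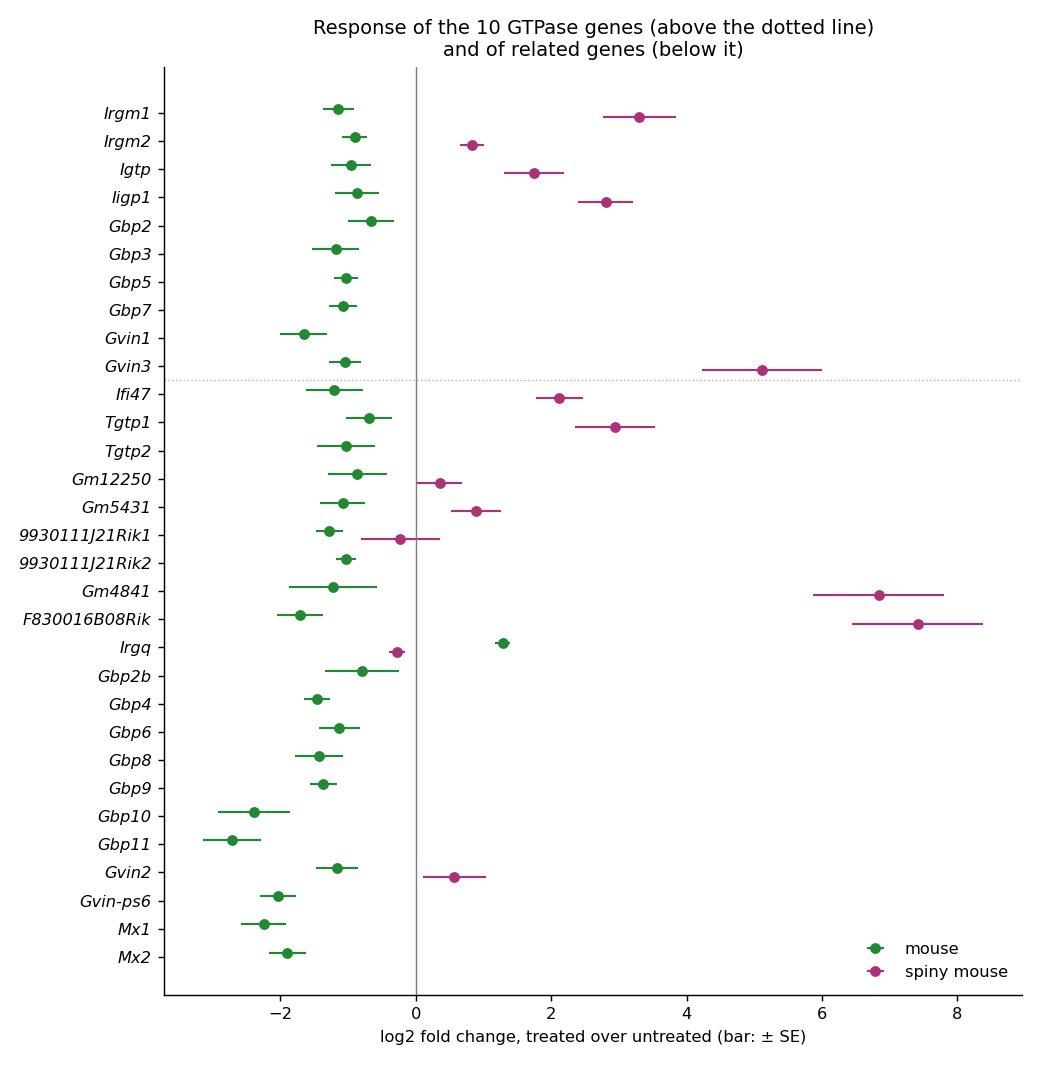
Log2 fold change (treated over untreated, bars ± SE) in mouse (green) and spiny mouse (purple) for the 10 GTPase genes and for 21 related genes that passed the filter in at least 1 species. Mouse values lie left of 0 for every gene but Irgq, and spiny mouse values reach 5.12 for Gvin3 and 7.41 for F830016B08Rik.

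Related IRG genes outside the list were tested with p-values. These genes and the other lists below were also chosen with earlier results of these data known. Their p-values are therefore a description too. In spiny mouse 4 of 8 tested were called higher and 0 lower, against 28.2% and 26.9% of all genes. In mouse 5 of 10 were called lower and 1 higher, against 35.3% and 25.9% of all genes. The strongest was F830016B08Rik, an effector-type IRG gene near Iigp1 in both assemblies. In spiny mouse it had 2.82, 3.37, 1.60 and 0.686 CPM in untreated and 32.5, 539, 657 and 236 CPM in treated skin. The groups did not overlap and treated replicate 1 was again the lowest (log2 fold change 7.41, SE 0.970, edgeR adjusted p = 0.000252). In mouse F830016B08Rik fell by 1.72 on the log2 scale (SE 0.340, edgeR adjusted p = 0.00221), and the species difference was 9.13 (SE 1.02, edgeR adjusted p = 6.3e-06).

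Gm4841, another IRG gene near Iigp1, went from 0.496 ± 0.283 to 57.6 ± 47.1 CPM in spiny mouse (log2 fold change 6.84, SE 0.972, edgeR adjusted p = 0.000395), and its value of -1.22 in mouse was not called, except without treated replicate 2 (-2.28). Ifi47, the IRG gene also known as Irgd, rose from 12.4 ± 1.12 to 54.0 ± 28.0 CPM in spiny mouse (log2 fold change 2.12, edgeR adjusted p = 0.0009). Tgtp1, whose promoter stretch resembles those of Igtp and Irgm2, rose from 4.44 ± 1.05 to 33.9 ± 23.4 CPM (log2 fold change 2.94, edgeR adjusted p = 0.00255). These rises were seen in all 4 treated samples of Gm4841, Ifi47 and Tgtp1 in spiny mouse. In mouse Ifi47 was called at -1.20 (edgeR adjusted p = 0.0317), a call kept in 1 of 8 fits that left out a sample, the 1 without untreated replicate 2 (-1.40). Without untreated replicate 3 the value was -0.90. Tgtp1 was not called in mouse (-0.70), except without untreated replicate 2 (-0.75). The mouse gene Tgtp2 was likewise not called (-1.03), except without that sample (-1.17). Similar copies were searched for the members only, so what Tgtp1 and Tgtp2 share in mouse was not examined.

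Not every IRG gene of spiny mouse rose. Gm12250, also known as Irgb10, had 7.58 ± 2.04 CPM untreated and 9.66 ± 4.20 CPM treated and was not called (log2 fold change 0.35). Gm5431 (0.89), 9930111J21Rik1 (-0.23) and Gvin2 (0.57) were not called either, although Gm5431 was called without treated replicate 1 (1.12). In the spiny mouse annotation 50.3% of the exon bases of 9930111J21Rik1 are shared with Gm12185 and 33.0% of those of Gm5431 with 9930111J21Rik2, so both counts are uncertain. Gvin2 had 4.25 to 4.84 CPM in 3 treated spiny mouse samples, below the untreated range of 5.04 to 5.92, and 19.1 CPM in replicate 3. Its species difference of 1.73 (edgeR adjusted p = 0.0307) was 0.88 and no longer called without that sample. The call was also lost without mouse treated replicate 1 (1.61), 2 (1.59) or 3 (1.57), mouse untreated replicate 1 (1.64) or 3 (1.59), or spiny mouse untreated replicate 1 (1.67). In mouse Gvin2 is also the gene with which Gvin1 shared the most, so its mouse counts are uncertain. Irgq, a distant IRG relative, went the other way, from 41.2 ± 4.57 to 100.2 ± 8.31 CPM in mouse (log2 fold change 1.28, edgeR adjusted p = 2.56e-05), with a species difference of -1.56 (edgeR adjusted p = 3.23e-06).

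The mouse GBP, Gvin and Mx genes outside the list were lower too. Of 7 other GBP genes tested in mouse 6 were called lower and 0 higher, against 35.3% and 25.9% of all genes. In the mouse annotation 46.3% of the exon bases of Gbp10 and 29.0% of those of Gbp6 are shared with Gm43302, so both counts are uncertain. Gbp4 went from 13.3 ± 2.32 to 4.799 ± 0.982 CPM (log2 fold change -1.46, edgeR adjusted p = 0.000256) and Gbp9 from 19.4 ± 3.64 to 7.50 ± 1.66 CPM (log2 fold change -1.36, edgeR adjusted p = 0.000412). The treated mean of Gbp11, 0.0962 CPM, lay at the floor of 3 counts. Both tested Gvin genes were called lower, Gvin2 at -1.16 and Gvin-ps6 at -2.04. Similar copies were searched for the members only, and Gvin1 shared the most with Gvin2, so the mouse counts of Gvin2 are uncertain too. Mx1 and Mx2, dynamin-like antiviral GTPases of the interferon response, fell by 2.25 (edgeR adjusted p = 0.000437) and by 1.89 (edgeR adjusted p = 0.000395) on the log2 scale.

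The spiny mouse response was uneven between treated samples, and it was uneven in the same way for every member. Treated replicate 1 was lowest in 5 of 5 members and treated replicate 3 highest in 5 of 5. Averaged over the 5 members, the log2 CPM relative to each gene's mean over 8 samples was -0.52, 1.92, 2.22 and 1.19 in treated replicates 1 to 4 and between -1.27 and -1.10 in the untreated samples. The ratio of the highest to the lowest treated sample was 30.5 for Gvin3, 8.12 for Irgm1, 5.75 for Igtp, 5.06 for Iigp1 and 1.93 for Irgm2, while among untreated samples it stayed between 1.15 and 1.39. Without treated replicate 1 the log2 fold changes were 5.52 for Gvin3 and 3.64 for Irgm1, and without treated replicate 3 they were 4.75 and 2.89.

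**Figure D3:**
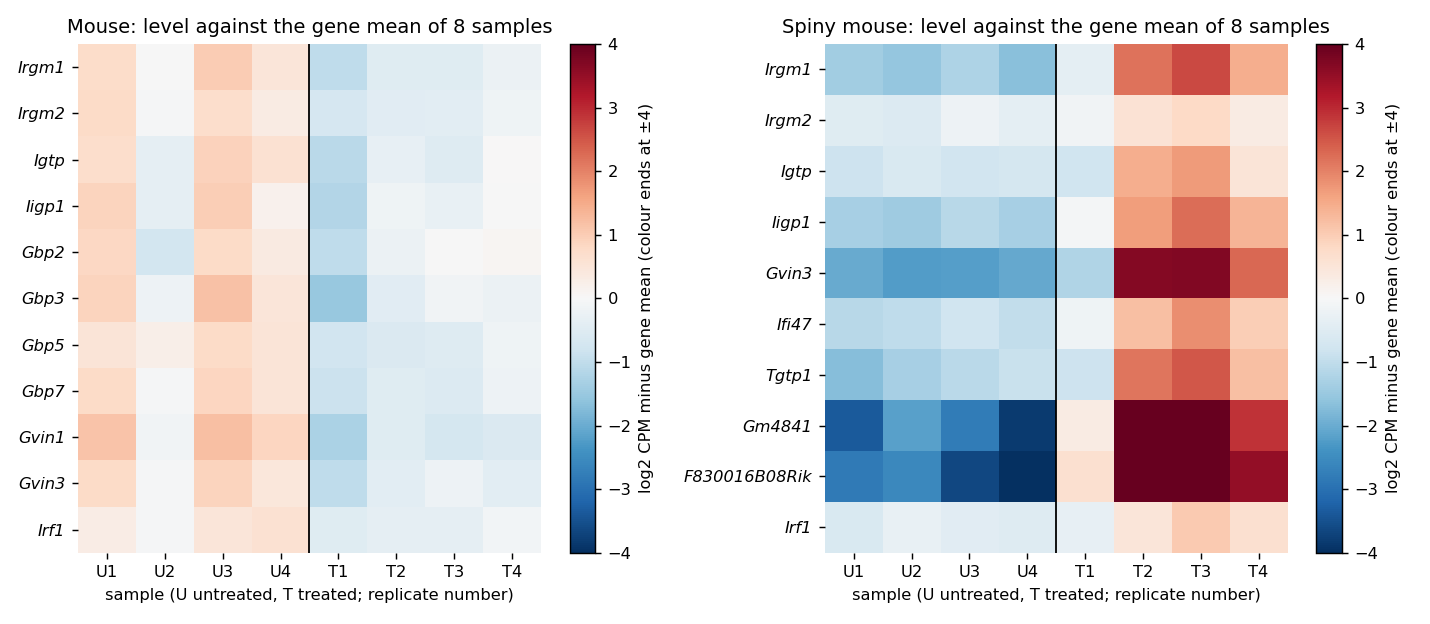
Log2 CPM of each gene minus its mean over the 8 samples of its species, by sample, for the GTPase genes, the transcription factor gene Irf1 and, in spiny mouse, the related genes Ifi47, Tgtp1, Gm4841 and F830016B08Rik, with colours ending at ±4. In spiny mouse treated replicate 1 is lower than treated replicates 2 to 4 in every row, and in mouse untreated replicate 2 is the lowest untreated sample in all 10 member rows.

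In mouse 2 samples stood apart within their groups. Untreated replicate 2 was lowest of its group in 10 of 10 members, and treated replicate 1 lowest of its group in 10 of 10. The centred mean over the 10 members was 0.80, -0.17, 0.93 and 0.48 in untreated replicates 1 to 4 and -1.04, -0.41, -0.39 and -0.20 in treated replicates 1 to 4. Without untreated replicate 2 all 10 members were called lower, and the genes called over the whole table rose from 12085 to 13944. Its difference was not confined to the GTPases. The 6 listed receptor genes summed to 202 CPM in it, against 315 to 321 CPM in the other untreated samples. For the 15 listed vacuole targeting and autophagy genes the sum was 1051 CPM, against 1899 to 2152 CPM. Endothelial markers went the other way, at 213 CPM against 186 to 192 CPM. That sample also differed in anagen hair follicle markers, whose mean log2 CPM over 7 genes was -0.16, 7.42, 1.67 and -0.60 in untreated replicates 1 to 4 and between 10.2 and 10.4 in the treated samples. All 7 were called higher in mouse, where the GTPases were lower, against 25.9% of all genes. In spiny mouse, where the GTPases were higher, 3 of these 7 were called lower and 0 higher, against 26.9% and 28.2% of all genes. Their means there were 9.61, 9.68, 6.23 and 7.61 in untreated and 4.11, 3.69, 7.63 and 6.33 in treated replicates 1 to 4. The part of hair follicle content in the result was not tested. The column of mouse untreated replicate 2 is also the only untreated mouse column whose name carries a further suffix, whose meaning is not given in the sources used here.

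Markers of T cells and of NK and cytotoxic cells were lower in treated mouse skin and higher in treated spiny mouse skin for part of each list. Of 8 T cell markers, 4 (Cd2, Cd3d, Cd3e and Cd3g) were called lower in mouse and 0 higher, while Cd4 (0.29), Trac (0.27), Lck (-0.04) and Cd8a (-0.24) were not called. In spiny mouse 5 of 7 T cell markers were called higher and 0 lower, and Cd3d (0.58) and Cd3e (0.54) were not called. Of 6 NK and cytotoxic markers 5 were called lower in mouse and 3 higher in spiny mouse. Over all genes tested 35.3% were called lower in mouse and 28.2% higher in spiny mouse. The summed level of 8 T cell markers ran from 21.7 to 30.6 CPM in untreated and from 12.8 to 17.2 CPM in treated mouse skin, and that of 7 of these markers in spiny mouse from 36.2 to 57.6 CPM untreated and from 69.0 to 137 CPM treated. The summed level of 6 NK and cytotoxic markers ran from 8.33 to 21.1 CPM in untreated and from 2.57 to 4.53 CPM in treated mouse skin. In spiny mouse it ran from 12.4 to 17.1 CPM untreated and, overlapping this, from 9.64 to 36.0 CPM treated. Within treated spiny mouse skin the mean log2 CPM of the T cell list was 3.10, 3.63, 4.18 and 3.75 in replicates 1 to 4. It was lowest and highest in the same samples as the GTPases. Cd8a, which marks cytotoxic T cells, was 3.78, 10.9, 20.7 and 9.82 CPM there. Its ratio of highest to lowest treated sample, 5.49, was the widest of the list. Lck came next at 2.22, and Cd4, also called higher, was the most even. In mouse Cd8a went from 0.946 ± 0.271 to 0.795 ± 0.281 CPM. No marker of either list was at 0 throughout a group. The part of these cells in the GTPase levels was not tested.

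Other cell type markers moved with the GTPases in part or against them. Their counts are to be read against all genes, with 25.9% called higher and 35.3% lower in mouse. In spiny mouse these shares were 28.2% and 26.9%. Macrophage markers (7 genes) summed to 409 to 458 CPM in untreated and 825 to 1411 CPM in treated spiny mouse skin, and 5 of 7 were called higher there. In mouse their sums overlapped (314 to 664 and 331 to 427 CPM), with 2 of 7 called lower and 0 higher. Their mean log2 CPM was 5.48, 4.45, 5.64 and 5.05 in untreated and 4.66, 4.78, 5.12 and 5.14 in treated mouse replicates 1 to 4, which is the sample order of the members' mean log2 CPM within each mouse group (4.38, 3.42, 4.51 and 4.07, then 2.55, 3.18, 3.20 and 3.39). That order was not particular to macrophage markers. The listed vacuole targeting and autophagy genes had it in both mouse groups, and T cell and endothelial markers had it in treated mouse samples. In treated spiny mouse samples the macrophage order differed from that of the members. Dendritic cell markers were called lower for 4 of 5 genes in mouse and for 2 of 4 in spiny mouse, with 0 higher in either. Neutrophil markers rose in both species, with 4 of 4 tested called higher in each. Their sums went from 8.51 to 36.7 CPM in untreated to 843 to 1747 CPM in treated mouse skin, with Ly6g at 0 in treated samples, and from 68.9 to 106 CPM to 2201 to 2565 CPM in spiny mouse. In mouse S100a8 and S100a9 (average log2 CPM 8.50 and 8.21) outweighed Cxcr2 (2.95) and Csf3r (3.06) in the neutrophil sums. The treated over untreated ratio of means there was 77.5 for S100a8, 81.0 for S100a9, 6.98 for Cxcr2 and 1.74 for Csf3r. Skeletal muscle markers were called lower for 6 of 6 genes in mouse and 5 of 5 in spiny mouse, with medians of -2.20 and -1.08. Among treated spiny mouse samples they were lowest and highest where the members were, at 6.69, 7.57, 7.61 and 7.20 log2 CPM in replicates 1 to 4. The part of these cell types in the result was not tested. Keratinocyte markers were abundant in all 16 samples, at a mean log2 CPM from 9.70 to 11.01.

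The genes of the pathway that induces and uses these GTPases were listed with earlier results of these data known. They were tested as lists of 65 genes in all. In mouse 57 passed the filter, of which 10 were called higher and 18 lower, against 25.9% and 35.3% of all genes, so the count of lower genes lay near the background. In spiny mouse 57 passed, of which 30 were called higher and 4 lower, against 28.2% and 26.9% of all genes. For the species difference 28 of 56 were called positive and 4 negative, against 21.4% and 24.7%. The counts of single lists below, of 3 to 15 genes, are to be read against these shares. The mouse balance depends on the scaling, since all genes shift with it: with library sizes alone 4 pathway genes were called higher and 26 lower. Higher genes were 42.4% of all mouse calls under TMM. That share became 28.6% with library sizes alone, which moved the median of all genes by -0.24 (log2), 30.5% under the upper quartile (-0.20) and 48.4% under size factors of DESeq2 (0.10). All 10 members kept a negative sign in mouse under each of these scalings.

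**Figure D4:**
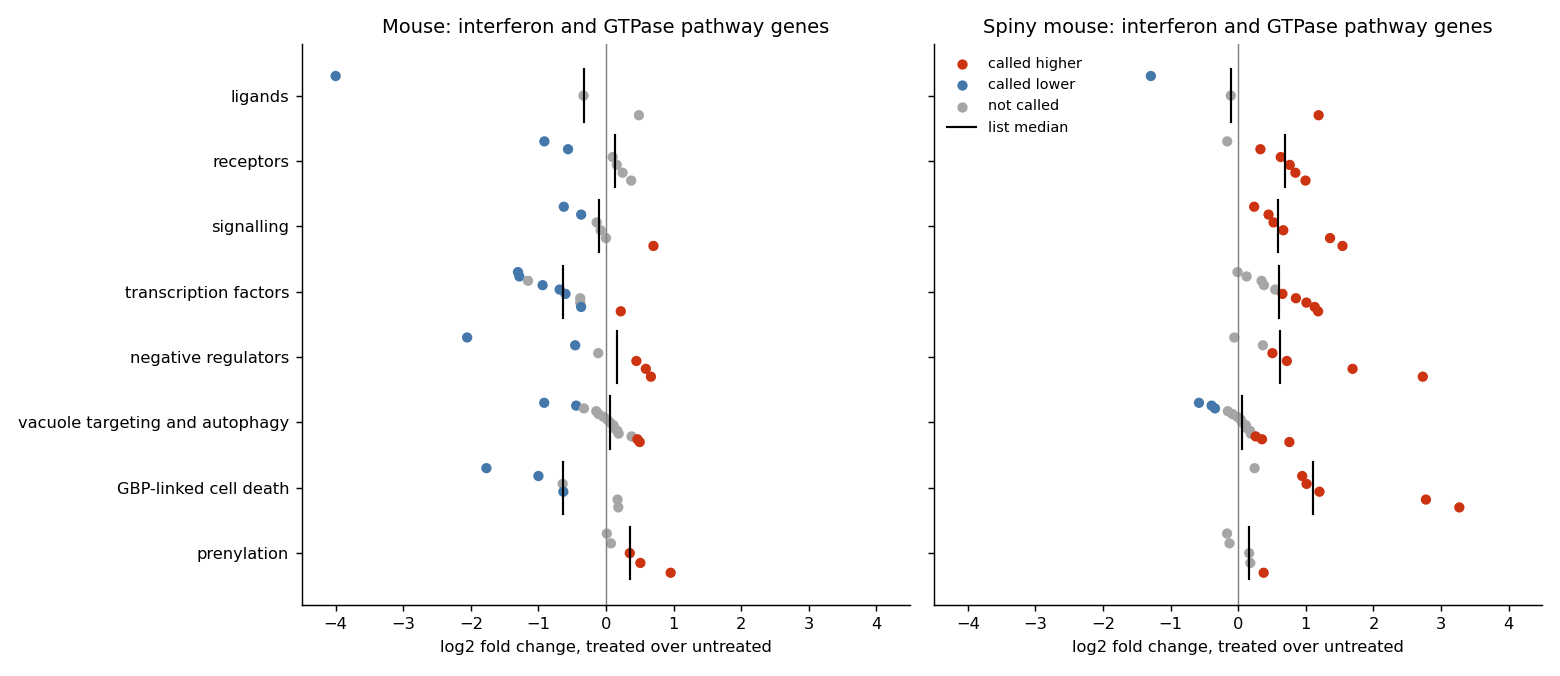
Log2 fold change (treated over untreated) of every tested gene of the 8 pathway lists in mouse (left) and spiny mouse (right), with genes called higher in red, called lower in blue and not called in grey, and the list median as a black line. In spiny mouse all 6 signalling genes are called higher, and in mouse 6 of 10 transcription factors are called lower.

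Interferon transcripts were scarce. Of 11 listed ligands 3 passed the filter in each species. Ifng, the main inducer of these GTPases, did not pass in either and had 2, 13, 19 and 4 counts in treated spiny mouse replicates 1 to 4, against 4, 1, 0 and 0 in the untreated ones. In mouse Ifng had 7, 1, 3 and 1 counts in untreated and 0, 2, 1 and 0 in treated samples. Ifng was therefore not tested. Ifnk, the interferon of keratinocytes, went from 2.10 ± 0.550 to 0.129 ± 0.0620 CPM in mouse, where it was called lower (edgeR adjusted p = 4.43e-05) and ended at the floor of 3 counts. Tnf rose in spiny mouse, from 3.31 ± 0.718 to 7.53 ± 3.70 CPM (edgeR adjusted p = 0.0114). Il18, a cytokine that induces interferon gamma, fell there from 151.9 ± 28.1 to 62.0 ± 13.6 CPM (edgeR adjusted p = 0.000324) and was not called in mouse (0.49), with a species difference of -1.78 (edgeR adjusted p = 0.00075).

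Receptors were called higher for 5 of 6 genes in spiny mouse, and lower for 2 of 6 in mouse. Ifngr1, the ligand-binding chain of the interferon gamma receptor, rose from 91.0 ± 12.7 to 181 ± 5.31 CPM in spiny mouse (edgeR adjusted p = 5.37e-05) and fell from 120 ± 31.5 to 63.9 ± 1.66 CPM in mouse (edgeR adjusted p = 0.00272). Its species difference was 1.91 (SE 0.222, edgeR adjusted p = 9.09e-06). Ifnar1, of the type I receptor, rose in spiny mouse by 0.85 on the log2 scale (edgeR adjusted p = 3.72e-05) and was not called in mouse (0.16) except without untreated replicate 2 (0.19) or 3 (0.25).

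All 6 signalling genes were called higher in spiny mouse. Jak2 rose from 134 ± 12.3 to 343 ± 53.4 CPM in spiny mouse (edgeR adjusted p = 3.91e-05) and was not called in mouse (-0.08). Stat3 was called higher in both species, at 0.70 in mouse and 0.45 in spiny mouse, and its difference of -0.25 was not called except without mouse treated replicate 2 (-0.38) or mouse untreated replicate 2 (-0.33).

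Among transcription factors 6 of 10 were called lower and 1 higher in mouse, 5 higher and 0 lower in spiny mouse, and 8 differed positively between the species. Irf1, which binds ISRE motifs, had 25.1, 19.8, 28.9 and 31.8 CPM in untreated and 14.6, 16.04, 15.9 and 19.0 CPM in treated mouse skin, without overlap (log2 fold change -0.69, SE 0.157, edgeR adjusted p = 0.00454). In spiny mouse Irf1 went from 30.4 ± 2.91 to 61.1 ± 22.1 CPM (log2 fold change 1.01, SE 0.239, edgeR adjusted p = 0.0061), and treated replicate 1 (33.5 CPM) lay inside the untreated range. Nlrc5 and Ciita, which drive MHC class I and class II genes, were called lower in mouse, at -0.94 (edgeR adjusted p = 0.000298) and -1.28 (edgeR adjusted p = 6.45e-05), and were not called in spiny mouse, at 0.55 and 0.38. Without treated replicate 1 both were called there, at 0.74 and 0.54, and Nlrc5 also without untreated replicate 3 (0.69). Irf3 was the gene called higher in mouse, at 0.22 (edgeR adjusted p = 0.0472), and with library sizes alone its value was -0.020. That call was lost without treated replicate 1 (0.24) or 3 (0.22) or untreated replicate 1 (0.23) or 4 (0.25).

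Negative regulators did not all follow the GTPases. Socs1 and Socs3, feedback inhibitors of JAK kinases, were called higher in both species, but in mouse the call of Socs1 (0.59) was lost without treated replicate 1 (0.66), 3 (0.55) or 4 (0.56) or untreated replicate 1 (0.59). Socs3 went from 36.6 ± 8.88 to 57.9 ± 12.3 CPM in mouse (edgeR adjusted p = 0.0169) and from 23.8 ± 2.74 to 158 ± 47.8 CPM in spiny mouse (edgeR adjusted p = 1.6e-05). Usp18, an interferon-induced inhibitor of the type I receptor, fell in mouse from 12.7 ± 2.56 to 3.03 ± 1.37 CPM (edgeR adjusted p = 0.000399) and was not called in spiny mouse (log2 fold change 0.36).

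Of 6 inflammasome and pyroptosis genes linked to GBPs, 5 were called higher in spiny mouse and 3 lower in mouse. Aim2, a sensor of cytosolic DNA, rose from 1.09 ± 0.190 to 10.5 ± 1.01 CPM in spiny mouse (edgeR adjusted p = 3.54e-06), and its treated samples stayed between 9.64 and 11.9 CPM, without the low replicate 1 of the GTPases. Casp4, the gene of mouse caspase-11, which binds bacterial lipopolysaccharide, rose from 12.6 ± 0.609 to 29.0 ± 3.72 CPM in spiny mouse (edgeR adjusted p = 3.14e-05) and fell from 25.7 ± 7.20 to 7.52 ± 0.625 CPM in mouse (edgeR adjusted p = 0.000114). The pore-forming Gsdmd had a species difference of 1.95 (edgeR adjusted p = 5.49e-05). Unlike Aim2, the list as a whole was lowest and highest in the same treated spiny mouse samples as the GTPases. Its mean log2 CPM was 4.33, 4.53, 4.68 and 4.57 in treated replicates 1 to 4.

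The autophagy conjugation genes that help place IRG and GBP proteins on vacuoles were mostly not called. Of 15 vacuole targeting and autophagy genes, 3 were called higher and 3 lower in spiny mouse, and 2 higher and 2 lower in mouse. The ubiquitin ligase Trim21 and the galectin Lgals8 were called lower in mouse (-0.91 and -0.44) and higher in spiny mouse (0.76 and 0.35). The ATG8 genes Map1lc3a (-0.58) and Gabarapl2 (-0.39) were called lower in spiny mouse. Of 5 prenylation genes 3 were called higher in mouse, among them Fntb, a farnesyltransferase subunit, at 0.96 (edgeR adjusted p = 2.27e-05), and in spiny mouse Pggt1b, a subunit of the enzyme that attaches a longer prenyl lipid, was called higher at 0.38 (edgeR adjusted p = 0.00508).

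The genes whose pattern was most like the mean pattern of the members were found by Pearson correlation over the 8 samples of each species, among genes outside the list whose average log2 CPM reached 1. In spiny mouse, among 13269 genes, the 4 most alike were Cd5l (r = 0.992), the IRG gene Ifi47 (0.989), Tgtp1 (0.989) and the lymphocyte receptor Cd27 (0.988). In mouse, among 14801 genes, the 5 most alike were Akr1c14 (0.994), Fgf7 (0.993), Ccl24 (0.992), Zfp1008 (0.990) and Plekhf1 (0.988). The 8 samples share the treatment contrast, so each r holds the difference between the groups as well as the order within them, and it is given without a p.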

How the data were processed

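Poly(A) RNA of 16 skin samples was analysed from raw fragment counts per gene, deposited by the authors as 1 table per species. Per the file headers, counts were made with featureCounts 2.0.3 on GRCm39 with Ensembl 108 for mouse and on AcoCah2 for spiny mouse, with no strand option in the command although the libraries are stranded per the labels, so reads of genes that overlap on opposite strands cannot be separated. The submitters' processing notes name Trim Galore and HISAT2, and GRCm39 for all samples. The deposited gene lengths in bases, per the file headers, were used for CPM per kb. The series' design text describes irradiated fibroblasts, and the sample labels were followed. Untreated columns carry another code than the labels' library names and were assigned by species and replicate number; that of mouse untreated replicate 2 has a further suffix of unstated meaning. Mouse identifiers were named through GENCODE M39 (56236 of 56980).

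Each species was fitted alone with edgeR 4.0.16 (R 4.3.3, filterByExpr, TMM factors, quasi-likelihood test, Benjamini-Hochberg over all genes tested). The SE of a log2 fold change is its size over the square root of F. The species by treatment difference was an interaction over 13656 symbols that occur a single time in both tables. Scripts were tested on simulated data with known changes. Log2 CPM used a prior count of 2.

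The members and all lists were chosen with earlier results of these data known. Named genes are the members, genes of those lists and the 5 most alike per species, of which 1 listed gene is not reported here; Irgd was read as Ifi47 by its RefSeq synonym. Replicate numbers recur in every group, but same-numbered samples did not deviate together (mean correlation 0.01 in mouse and -0.36 in spiny mouse), so the block is an alternative only. Alternatives were the upper quartile or library size alone in place of TMM, DESeq2 1.42.0 as a test or for its size factors, no filter, a mean of at least 10 counts, the block, and leaving out each sample.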

Additional observations from a re-analysis of the deposited data

Results flagged for a closer look

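The treatment effect differed between the species, by the edgeR interaction test, for the following genes of the GTPase families. Among the chosen members the spiny mouse minus mouse log2 fold change was 6.16 for Gvin3, 4.44 for Irgm1, 3.67 for Iigp1, 2.70 for Igtp and 1.73 for Irgm2, and these were known when the list was made. Among related genes it was 9.13 for F830016B08Rik, 8.07 for Gm4841, 3.62 for Tgtp1, 3.32 for Ifi47, 1.97 for Gm5431, 1.73 for Gvin2 and -1.56 for Irgq. The exons of Gm5431 in spiny mouse are shared for 33.0% of their bases with 9930111J21Rik2, so its value is uncertain. The value of Gvin2 was 0.88 without treated spiny mouse replicate 3, and its call was lost in that fit and without any of 6 other samples taken singly. The mouse counts of Gvin2 are uncertain as well, since Gvin1 shared the most with it. Similar copies of the related genes were not searched for. No sample of a member's group lay far enough from the other 3 to be marked as an outlier.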

How the results depend on the processing

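All 75 values of the 5 members in spiny mouse and all 115 of their species difference, each a gene under an alternative, kept direction and call. In mouse all 150 values of the 10 members stayed negative, 12 lost the call (Igtp and Iigp1) and 3 of Gbp2 gained it, and leaving out 1 sample gave 7 to 10 members called lower. With the replicate block the counts were 8 members called lower in mouse and 5 higher in spiny mouse, and the species difference of Gvin3 was 5.52; the block changed no call of a spiny mouse member, and in mouse it lost the call of Iigp1 (-0.83). Of pathway genes called higher in mouse there were 10, against 6 under upper-quartile scaling and 4 using library size alone. Pathway genes with a negative species difference numbered 4, against 11 in the DESeq2 test, 10 using its size factors, 2 under upper-quartile scaling, 2 using library size alone and 10 unfiltered, and leaving out 1 sample gave 4 to 10. For these counts the cause was not tested. Irf3 in mouse changed sign to -0.020 with library size alone. Among genes called for the species difference 46.4% were positive, against 66.2% using library size alone, 61.2% under upper-quartile scaling, 36.9% for the size factors of DESeq2 and 36.3% unfiltered. Depth limits the reading of Ifng and Gbp11, and the exon bases shared with Gbp2 limit that of Gbp2b in spiny mouse. In that species 5 of the 10 members could be tested.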
